A study of Mus musculus with 12 samples.

Results

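Toll-like receptors are membrane proteins that bind molecules of microbes and of damaged cells and switch on inflammatory genes, and 7 of them are described here together with 2 co-receptors and 1 adaptor. The 10 genes were taken by name: each is a row of the deposited count table whose Ensembl identifier maps to Tlr1, Tlr2, Tlr3, Tlr4, Tlr7, Tlr9, Tlr13, Cd14, Ly86 or Myd88, out of 56980 rows in all. All 10 had a row, and 9 had enough counts to be tested; Tlr9 did not.

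Hippocampi of 12 male mice were sequenced, each as a library of its own, in 4 groups of 3. Trem2-KO mice at 3 months and at 9 months carried the AppNL-G-F knock-in and a Trem2 knockout. App-KI mice at 3 months and at 9 months carried the same knock-in with Trem2 present. AppNL-G-F is a mouse App gene, under its own promoter, with a humanised and mutated amyloid-β stretch that leads to amyloid plaques, and Trem2 is a lipid-sensing receptor of microglia, the resident macrophages of the brain. All 4 groups carried the knock-in and no library without it was analysed here, so age and amyloid load cannot be told apart. The labels do not say which part of Trem2 was deleted, and each library is a whole tissue, in which fewer cells of a type and less RNA per cell cannot be told apart.

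Tlr1, Tlr2 and Tlr4 sit at the cell surface and respond to bacterial lipoproteins and lipopolysaccharide, with CD14 handing over the ligand. Tlr3, Tlr7, Tlr9 and Tlr13 sit in endosomes and respond to nucleic acids. Ly86, also called MD-1, is the partner of the receptor homologue CD180, and MyD88 carries the signal of all of these receptors except TLR3 to NF-κB. In brain, microglia express most of the family, while Tlr3 is also known from astrocytes and neurons.

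Total counts ran from 14627892 to 24594655 per library, and 3 counts, the most that an observed 0 leaves possible, stood for 0.122 to 0.205 CPM (counts relative to the library total, scaled between libraries by the trimmed mean of M-values). Trem2 averaged 1.98 ± 0.165 CPM in Trem2-KO and 9.18 ± 1.15 CPM in App-KI at 3 months, and 3.73 ± 0.110 CPM in Trem2-KO and 52.6 ± 2.89 CPM in App-KI at 9 months (SD, n = 3 each). All 10 hippocampal neuron markers (Prox1, Neurod6 and others) had counts in every library, with summed levels of 1207 to 1431 CPM. The summed level of 10 choroid plexus markers was 60.2 CPM in App-KI 3-month replicate 1, 48.9 CPM in App-KI 9-month replicate 2 and 80.1 CPM in Trem2-KO 9-month replicate 3, against 449.99 to 3182 CPM in the 9 other libraries. The calls are given again without these 3 libraries where that changed them. That fit has 1 library fewer in App-KI mice at 3 months and in both genotypes at 9 months. For a lost call, fewer libraries and choroid plexus content cannot be told apart.

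The genes differed widely in level. Per kilobase of annotated exon, Ly86 led in App-KI mice at 9 months with 10.8 CPM, followed by Cd14 with 6.90, Tlr3 with 4.47, Myd88 with 4.17, Tlr2 with 3.55, Tlr13 with 2.47, Tlr7 with 2.04, Tlr4 with 0.749, Tlr1 with 0.697 and Tlr9 with 0.0432 CPM per kilobase. The libraries of Tlr3 and Myd88 overlapped, as did those of Myd88 and Tlr2 and those of Tlr4 and Tlr1, and the other neighbours in this order did not. In Trem2-KO mice at 9 months Tlr3 stood first with 4.96 CPM per kilobase, overlapping Ly86 with 4.84, and Cd14 followed Myd88 with 2.71. At 3 months Tlr3 also led in both genotypes, with 3.72 CPM per kilobase in Trem2-KO and 3.57 in App-KI mice, but its libraries overlapped those of the next gene, Ly86 in Trem2-KO and Myd88 in App-KI mice. Tlr9 came last in all 4 groups. It had 35 counts over the 12 libraries and 0 in 2 of them, and its group means of 0.123 to 0.176 CPM lay at or near that limit, so a difference between groups was not detectable at this depth.

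**Figure D1:**
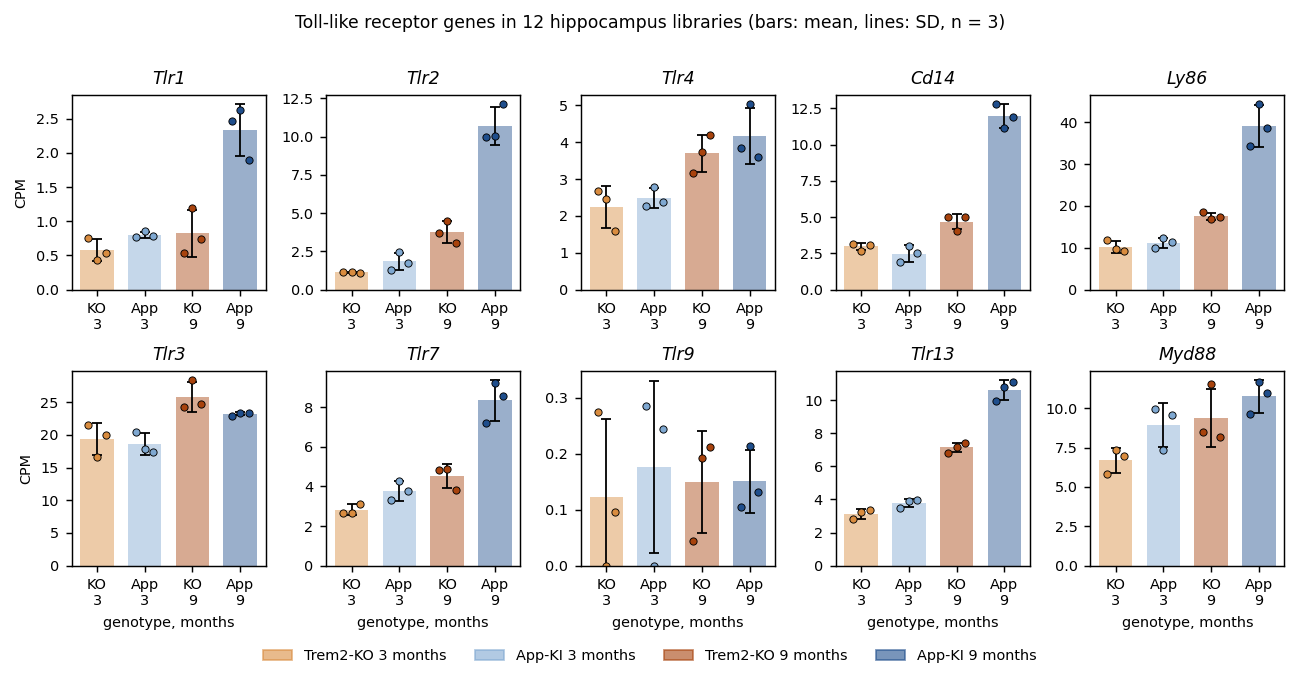
Level of each of the 10 genes in CPM (y axis, linear from 0, own scale per gene) in the 4 groups (x axis); points are libraries, bars the mean and lines the SD of 3 libraries. Tlr2, Cd14 and Ly86 were highest in all 3 App-KI libraries at 9 months, at 9.95 to 12.1, 11.1 to 12.8 and 34.3 to 44.4 CPM, while the Tlr3 libraries stayed within 16.6 and 28.4 CPM.

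The start regions of 4 of the genes are shown because they belong to genes that behaved differently: Tlr2, Ly86 and Tlr13 were lower in Trem2-KO mice at 9 months, and Tlr3 was not. RefSeq's promoter windows, which run from 250 bases before to 50 bases after the start site, were searched for 7 of the 10 genes. Tlr4 and Tlr7 had no window there. Cd14 was left out of the search, so its absence here does not mean that RefSeq lacks a window for it. Capitals mark letters that match 1 of 3 motifs on either strand, none overlapping another: AGGAAGT of the myeloid factor PU.1, GGGANTTTC of NF-κB and GAANNGAAA of the interferon-stimulated response element. Coordinates are those of the RefSeq build, not of the authors' build.
Tlr2 (GRCm38.p6, chr3:83841559-83841858, minus strand): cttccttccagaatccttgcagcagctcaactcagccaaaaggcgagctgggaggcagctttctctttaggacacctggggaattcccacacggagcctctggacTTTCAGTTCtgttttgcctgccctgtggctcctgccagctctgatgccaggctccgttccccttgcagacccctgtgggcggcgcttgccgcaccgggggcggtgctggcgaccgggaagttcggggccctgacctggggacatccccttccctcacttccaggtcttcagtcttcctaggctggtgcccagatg
Ly86 (GRCm38.p6, chr13:37345095-37345394, plus strand): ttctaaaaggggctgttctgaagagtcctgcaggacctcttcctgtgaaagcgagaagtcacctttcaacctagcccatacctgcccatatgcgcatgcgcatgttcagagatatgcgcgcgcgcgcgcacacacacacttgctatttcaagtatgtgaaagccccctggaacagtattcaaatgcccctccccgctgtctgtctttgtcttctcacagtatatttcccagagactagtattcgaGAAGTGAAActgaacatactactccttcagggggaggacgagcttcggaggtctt
Tlr13 (GRCm38.p6, chrX:106143025-106143324, plus strand): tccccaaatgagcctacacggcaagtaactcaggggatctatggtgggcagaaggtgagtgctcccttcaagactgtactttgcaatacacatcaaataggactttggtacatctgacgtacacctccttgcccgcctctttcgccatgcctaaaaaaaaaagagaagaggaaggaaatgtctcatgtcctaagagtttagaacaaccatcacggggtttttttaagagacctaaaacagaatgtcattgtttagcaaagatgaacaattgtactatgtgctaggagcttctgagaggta
Tlr3 (GRCm38.p6, chr8:45410331-45410630, minus strand): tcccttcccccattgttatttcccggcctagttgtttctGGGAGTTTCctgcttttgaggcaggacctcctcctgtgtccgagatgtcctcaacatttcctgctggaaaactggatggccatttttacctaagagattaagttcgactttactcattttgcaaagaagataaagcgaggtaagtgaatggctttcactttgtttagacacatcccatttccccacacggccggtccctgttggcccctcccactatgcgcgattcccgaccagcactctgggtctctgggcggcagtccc
The windows of Tlr2 and Ly86 each held 1 match to the interferon-stimulated response element, that of Tlr3 held 1 match to NF-κB, and that of Tlr13 held none. Of the 2 windows of Tlr1, 1 held a PU.1 match, as did the window of Tlr9, and the Myd88 window held none of the 3 motifs. Among the 32851 promoter windows searched, 9.35% held the PU.1 letters, 1.11% the NF-κB letters and 7.52% those of the interferon-stimulated response element. A match of letters describes the sequence and does not show that a factor binds there. Other forms of these sites were not searched, so a window without a match may still hold one.

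Trem2-KO and App-KI mice at 9 months were set against each other first. Of the 10 genes, 6 were lower in Trem2-KO than in App-KI mice (Tlr1, Tlr2, Tlr7, Tlr13, Cd14 and Ly86), none was higher, 3 were not called (Tlr3, Tlr4 and Myd88) and Tlr9 was not tested. Across all 19152 tested genes 1.39% were called lower and 0.684% higher, at an adjusted p under 0.05 (edgeR quasi-likelihood F-test, Benjamini-Hochberg adjusted). The libraries of the 2 genotypes did not overlap for these 6 genes, where 9.04% of all tested genes had every Trem2-KO library below every App-KI library.

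Among the surface receptors, Tlr2, which senses lipoproteins, stood at 3.70, 4.50 and 3.07 CPM in the Trem2-KO libraries at 9 months, against 9.95, 10.01 and 12.1 CPM in the App-KI libraries. Every Trem2-KO library was below every App-KI library, and the knockout mean was 35.1% of the App-KI mean. The log2 fold change was -1.50 ± 0.18 (SE, n = 3 libraries per group, adjusted p = 3.11e-05). Tlr1, which pairs with TLR2 to bind triacylated lipoproteins, had 0.529, 1.20 and 0.741 CPM in Trem2-KO and 2.48, 2.62 and 1.90 CPM in App-KI libraries. It fell by 1.51 ± 0.30 on the log2 scale (adjusted p = 0.00878), on 51 counts in the 3 Trem2-KO and 125 counts in the 3 App-KI libraries. Without Trem2-KO 9-month replicate 1 the change of Tlr1 was -1.26 with an adjusted p = 0.0648. Tlr4, the lipopolysaccharide receptor, differed from these: its levels were 3.17, 3.73 and 4.18 CPM in Trem2-KO and 3.84, 5.03 and 3.60 CPM in App-KI libraries. The groups overlapped, with a log2 fold change of -0.18 ± 0.20 (adjusted p = 0.758).

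Both co-receptors fell. Cd14 had 5.02, 4.07 and 4.98 CPM in Trem2-KO and 12.8, 11.1 and 11.9 CPM in App-KI libraries, a knockout mean of 39.2% of the App-KI mean. Its log2 fold change was -1.35 ± 0.15 (adjusted p = 1.35e-05). Ly86 had 18.5, 16.9 and 17.3 CPM in Trem2-KO and 34.3, 44.4 and 38.8 CPM in App-KI libraries, without overlap. It fell by 1.16 ± 0.11 on the log2 scale, to 44.9% of the App-KI mean (adjusted p = 1.17e-06).

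Among the endosomal receptors, Tlr7, which binds single-stranded RNA, had 4.85, 4.88 and 3.81 CPM in Trem2-KO and 7.21, 9.21 and 8.58 CPM in App-KI libraries. The groups did not overlap, and the log2 fold change was -0.88 ± 0.16 (adjusted p = 0.00276). Tlr13, which binds a stretch of bacterial ribosomal RNA and is lost in humans, had 6.83, 7.18 and 7.41 CPM in Trem2-KO and 9.95, 10.8 and 11.1 CPM in App-KI libraries. It fell by 0.57 ± 0.12 on the log2 scale (adjusted p = 0.0169), the smallest change among the 6 called genes. The Tlr13 call was lost in 3 of the 6 fits that left out 1 library, with adjusted p up to 0.0931 and log2 fold changes of -0.62 to -0.54. Tlr3, which binds double-stranded RNA, went the other way in value: 24.3, 28.4 and 24.8 CPM in Trem2-KO and 23.0, 23.4 and 23.4 CPM in App-KI libraries. Every Trem2-KO library was above every App-KI library, as in 8.28% of all tested genes, yet the log2 fold change of 0.15 ± 0.10 was not called (adjusted p = 0.547). Myd88, the adaptor, had 8.50, 11.5 and 8.16 CPM in Trem2-KO and 9.64, 11.7 and 10.9 CPM in App-KI libraries, with a log2 fold change of -0.19 ± 0.15 that was not called (adjusted p = 0.621). Its exons overlap those of Acaa1a on the opposite strand in the reference annotation, and the sources used here give no strand setting for the counting. Without one, reads of the 2 genes cannot be told apart in the stretch they share, whose length is not given here.

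Without the 3 libraries low in choroid plexus markers, 4 of the 10 genes were called lower. Tlr1 then had a log2 fold change of -1.36 (adjusted p = 0.0693) and Tlr13 one of -0.59 (adjusted p = 0.0547). In the main fit these were -1.51 for Tlr1 and -0.57 for Tlr13. That fit had 1 library fewer in each genotype at 9 months, and the share of all genes it called is not given here. Markers of other cells moved with the comparison of genotypes at 9 months. The summed level of 20 pan-microglial markers was 970.6 to 1042 CPM in Trem2-KO and 1588 to 1708 CPM in App-KI mice at 9 months. Of the 20, 17 were called lower and none higher, with a median log2 fold change of -0.67. Single markers ranged from -1.44 (Ptprc) to -0.18 (Tmem119, not called). The 10 border macrophage and monocyte markers summed to 24.0 to 35.0 CPM in Trem2-KO and 13.95 to 21.1 CPM in App-KI mice. EdgeR called none of the 9 tested and DESeq2 called 2. In edgeR 7 had an unadjusted p under 0.05, as did 2613 of all 19152 tested genes. The summed level of 10 meningeal and perivascular fibroblast markers was 268.6 to 399 CPM in Trem2-KO and 176 to 209 CPM in App-KI mice, with 1 called higher by edgeR and 5 by DESeq2. That of 10 endothelial markers was 341 to 355 CPM in Trem2-KO and 276 to 302 CPM in App-KI mice, with 2 called higher, and that of 10 astrocyte markers was 5583 to 6097 CPM in Trem2-KO and 6350 to 6786 CPM in App-KI mice, with 2 called lower. The part of these cells in the result was not tested. Neutrophil markers summed to at most 2.73 CPM and B and T cell markers to at most 6.42 CPM in any library. Ly6g, which defines neutrophils, was at 0 in 10 of the 12 libraries.

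**Figure D2:**
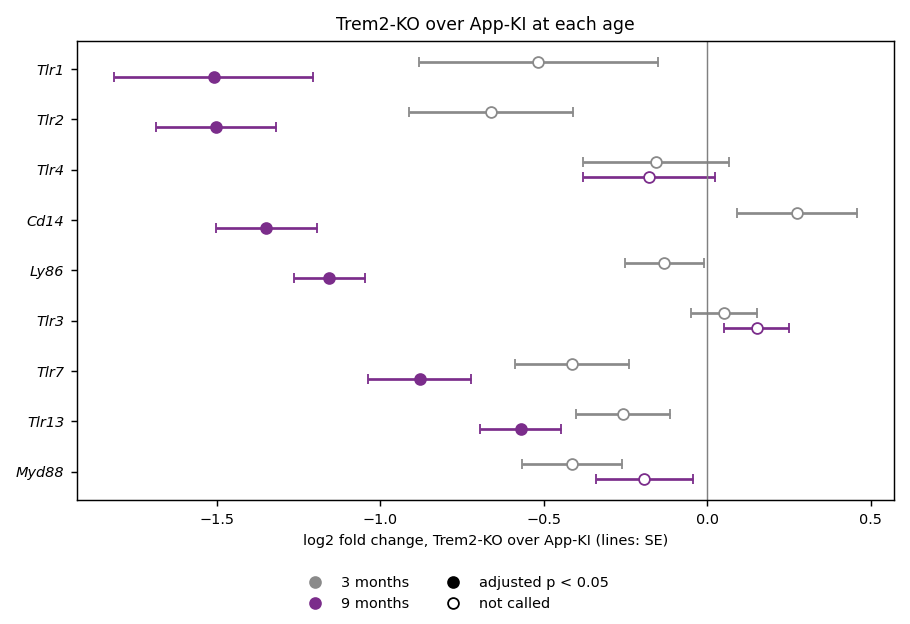
Log2 fold change of Trem2-KO over App-KI (x axis) for the 9 tested genes (y axis) at 3 months (grey) and at 9 months (purple); lines are the SE and filled points have an adjusted p under 0.05. The 6 filled points, all at 9 months, run from -1.51 for Tlr1 to -0.57 for Tlr13.

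At 3 months the same comparison gave no call among the 10 genes. EdgeR's quasi-likelihood test called 0 of the 9 tested and DESeq2 called 0, where 0.59% of all tested genes were called by edgeR. By edgeR 3 had an unadjusted p under 0.05 (Tlr2, Tlr7 and Myd88), as did 2152 of the 19152 tested genes. Tlr2 had 1.16, 1.14 and 1.11 CPM in Trem2-KO and 1.30, 2.45 and 1.75 CPM in App-KI libraries, all Trem2-KO values lying below the App-KI ones. Its log2 fold change was -0.66 ± 0.25 (unadjusted p = 0.0150, adjusted p = 0.289, edgeR). Myd88 had 5.82, 7.33 and 6.98 CPM in Trem2-KO and 9.93, 7.35 and 9.60 CPM in App-KI libraries (log2 fold change -0.41 ± 0.15, adjusted p = 0.280). Tlr7 had 2.67, 2.63 and 3.13 CPM in Trem2-KO and 3.30, 4.28 and 3.75 CPM in App-KI libraries (-0.41 ± 0.17, adjusted p = 0.361). With Tlr1 and Tlr13, 5 genes had every Trem2-KO library below every App-KI library at 3 months, where 8.93% of all tested genes did. Cd14 was among the 2 genes with a positive value, 0.27 ± 0.18, on levels of 3.15, 2.68 and 3.08 CPM in Trem2-KO and 1.87, 3.02 and 2.53 CPM in App-KI libraries, which overlapped. Ly86 overlapped too, at 9.19 to 11.8 CPM in Trem2-KO and 9.89 to 12.3 CPM in App-KI libraries. Pan-microglial markers summed to 643 to 661 CPM in Trem2-KO and 679.6 to 711 CPM in App-KI mice at this age. Neither edgeR nor DESeq2 called any of those 20, 4 of which had an edgeR p under 0.05 before adjustment.

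The comparison of ages asked how the genes changed between 3 and 9 months in each genotype. In Trem2-KO mice 7 of the 10 genes rose (Tlr2, Tlr3, Tlr4, Tlr7, Tlr13, Cd14 and Ly86) and none fell, where 5.68% of all tested genes were called higher at 9 months. In App-KI mice 7 rose as well (Tlr1, Tlr2, Tlr4, Tlr7, Tlr13, Cd14 and Ly86) and none fell, where 3.95% of all tested genes were called higher. In each genotype 8 genes had every 9-month library above every 3-month library, where 13.5% of all tested genes did in Trem2-KO and 11.2% in App-KI mice. In Trem2-KO mice the count of 7 fell to 3 without 3-month replicate 2 and to 4 without 9-month replicate 2 of that genotype. The calls over all tested genes ran from 769 to 1920 with 1 library left out, against 1667 in the main fit. Of the 20 pan-microglial markers 17 rose in Trem2-KO and 20 in App-KI mice. In Trem2-KO mice 4 of the 9 tested border macrophage and monocyte markers rose as well, with sums of 24.0 to 35.0 CPM at 9 months and 11.4 to 17.3 CPM at 3 months, and so did 5 of 10 fibroblast and 4 of 10 endothelial markers. In App-KI mice 1 border macrophage and monocyte marker rose, and edgeR and DESeq2 called 0 fibroblast and 0 endothelial markers, with 0 of either at an unadjusted p under 0.05. The part of these cells in the changes with age was not tested. The age comparisons use the same libraries as the genotype comparisons, so the 4 sets of values are not independent of each other.

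Tlr2 rose most in both genotypes among the 9 tested genes. In Trem2-KO mice its mean was 3.76 ± 0.715 CPM at 9 months and 1.14 ± 0.0284 CPM at 3 months, a log2 fold change of 1.72 ± 0.23 (adjusted p = 7.65e-05). In App-KI mice it was 10.7 ± 1.23 CPM at 9 months and 1.84 ± 0.579 CPM at 3 months, a log2 fold change of 2.56 ± 0.20 (adjusted p = 1.47e-08). Tlr13 rose by 1.17 ± 0.14 on the log2 scale in Trem2-KO (adjusted p = 2.01e-05) and by 1.49 ± 0.13 in App-KI mice (adjusted p = 1.05e-07). Tlr7 rose by 0.68 ± 0.17 in Trem2-KO (adjusted p = 0.0159) and by 1.15 ± 0.16 in App-KI mice (adjusted p = 6.19e-05). The Trem2-KO call of Tlr7 was lost in 2 of 6 fits that left out 1 library (adjusted p up to 0.0695). No library of 9 months overlapped those of 3 months for these 3 genes in either genotype.

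Tlr1 was the called gene of App-KI mice that was not called in Trem2-KO mice. It had a log2 fold change of 0.55 ± 0.36 in Trem2-KO (adjusted p = 0.393) and rose by 1.54 ± 0.31 in App-KI mice (adjusted p = 0.00257). The test of that difference gave -0.99 ± 0.48 (adjusted p = 0.840), so the change with age is not shown to differ between genotypes for Tlr1. Tlr4 rose by 0.73 ± 0.21 in Trem2-KO (adjusted p = 0.0369) and by 0.75 ± 0.21 in App-KI mice (adjusted p = 0.0325). Both Tlr4 calls were lost in 4 of the 6 fits that left out 1 library, with adjusted p up to 0.209 in Trem2-KO and 0.203 in App-KI mice. Without the 3 libraries low in choroid plexus markers they had adjusted p = 0.0869 in Trem2-KO and 0.331 in App-KI mice.

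Tlr3 rose in Trem2-KO mice, with 25.8 ± 2.23 CPM at 9 months and 19.3 ± 2.48 CPM at 3 months (log2 fold change 0.42 ± 0.10, adjusted p = 0.0109). In App-KI mice it had 23.3 ± 0.251 CPM at 9 months and 18.6 ± 1.66 CPM at 3 months, a log2 fold change of 0.32 ± 0.10 that was not called (adjusted p = 0.0607), although the libraries did not overlap. The Trem2-KO call of Tlr3 was lost in 2 of 6 fits that left out 1 library (adjusted p up to 0.0782), and the App-KI change was called in 1 of 6 such fits. It was also called without the filter on low counts (adjusted p = 0.0373) and with the 2 groups fitted alone (adjusted p = 0.0310). The Tlr3 changes of the 2 genotypes differed by 0.10 ± 0.14 (adjusted p = 0.992). Astrocyte markers, the cells besides neurons for which Tlr3 is known, summed to 5583 to 6097 CPM at 9 months and 4304 to 4434 CPM at 3 months in Trem2-KO mice, and to 6350 to 6786 CPM at 9 months and 4532 to 4770 CPM at 3 months in App-KI mice; their part in the Tlr3 values was not tested. Myd88 had a log2 fold change of 0.48 ± 0.15 in Trem2-KO (adjusted p = 0.0575) and 0.26 ± 0.15 in App-KI mice (adjusted p = 0.427). The Trem2-KO change of Myd88 was called by DESeq2 (adjusted p = 0.0493), and by edgeR without the 3 libraries low in choroid plexus markers (0.56, adjusted p = 0.0278).

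**Figure D3:**
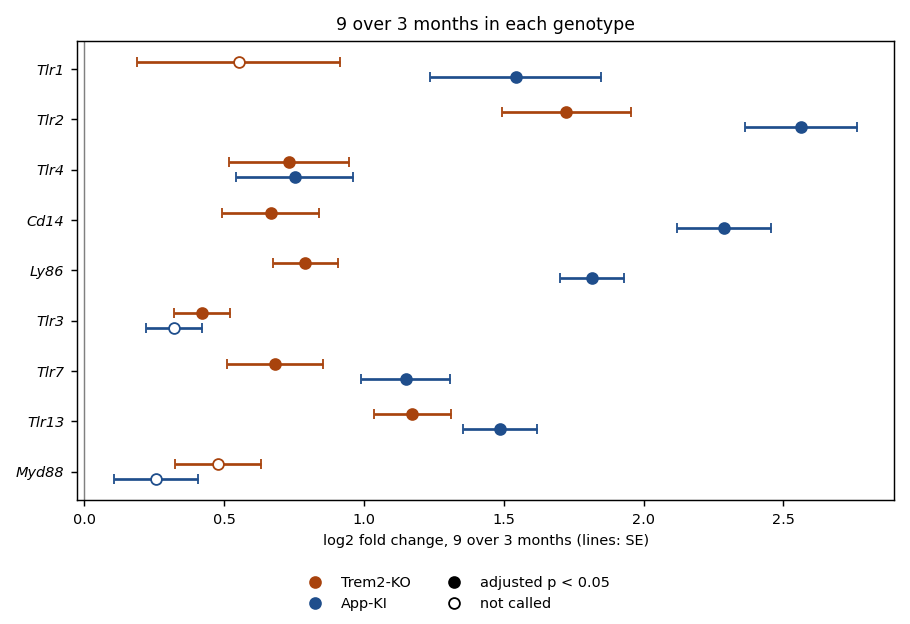
Log2 fold change of 9 over 3 months (x axis) for the 9 tested genes (y axis) in Trem2-KO (brown) and App-KI mice (blue); lines are the SE and filled points have an adjusted p under 0.05. The gap between the genotypes is widest for Cd14, at 0.67 in Trem2-KO and 2.29 in App-KI mice, and Ly86, at 0.79 in Trem2-KO and 1.81 in App-KI mice.

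The interaction of age and genotype asked whether the change with age itself differed. Cd14 and Ly86 rose less in Trem2-KO than in App-KI mice, and they were the 2 genes called of the 9 tested, where 0.209% of all tested genes were called in that direction and 0.0574% in the other. Cd14 rose by 0.67 ± 0.17 on the log2 scale in Trem2-KO and by 2.29 ± 0.17 in App-KI mice, a difference of -1.62 ± 0.24 (adjusted p = 0.00164). Ly86 rose by 0.79 ± 0.12 in Trem2-KO and by 1.81 ± 0.11 in App-KI mice, a difference of -1.02 ± 0.16 (adjusted p = 0.00380). Both were called in each of the 12 fits that left out 1 library. The pan-microglial markers moved in the same direction: 9 of the 20 were called in the interaction by edgeR and 13 by DESeq2, with a median difference of -0.55. The rise of Cd14 in Trem2-KO mice was lost in 3 of 6 fits that left out 1 library (adjusted p up to 0.0881). Without the 3 libraries low in choroid plexus markers Cd14 was the 1 gene called, and Ly86 had a difference of -0.83 (adjusted p = 0.0540). Tlr2 had a difference of -0.84 ± 0.31 and an unadjusted p = 0.0142, with an adjusted p = 0.589. Tlr4 had the value nearest to 0, -0.021 ± 0.30, and it was positive in 6 of the 12 fits that left out 1 library.

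The genes were also set against microglial markers, which rescales all genes of a library alike. Cd14 had 4.63 ± 0.627 counts per 1000 counts of the 20 pan-microglial markers in Trem2-KO and 7.24 ± 0.772 in App-KI mice at 9 months, and 4.54 ± 0.329 in Trem2-KO and 3.53 ± 0.766 in App-KI mice at 3 months (SD, n = 3 each). Tlr2 had 3.71 ± 0.714 in Trem2-KO and 6.46 ± 0.720 in App-KI mice at 9 months, and 1.74 ± 0.0553 in Trem2-KO and 2.62 ± 0.792 in App-KI mice at 3 months. Ly86 had 17.4 ± 1.48 in Trem2-KO and 23.6 ± 2.21 in App-KI mice at 9 months, and 15.6 ± 2.11 in Trem2-KO and 16.0 ± 1.46 in App-KI mice at 3 months. For these 3 genes the Trem2-KO and App-KI libraries at 9 months did not overlap on this scale either. Tlr13, Tlr3, Tlr4 and Myd88 did the opposite in value at 9 months, again without overlap. Tlr13 had 7.04 ± 0.0759 in Trem2-KO and 6.41 ± 0.195 in App-KI mice. Tlr3 had 25.4 ± 1.91 in Trem2-KO and 14.1 ± 0.379 in App-KI mice. Tlr4 had 3.64 ± 0.374 in Trem2-KO and 2.51 ± 0.402 in App-KI mice. Myd88 had 9.26 ± 1.74 in Trem2-KO and 6.49 ± 0.389 in App-KI mice. The share of all tested genes without overlap on this scale was not computed. With libraries scaled by these markers, 80.5% of all tested genes were called higher in Trem2-KO mice at 9 months. A higher value on this scale is therefore not particular to Tlr13, Tlr3, Tlr4 and Myd88.

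When the libraries were scaled by the summed counts of those markers, edgeR called Tlr1, Tlr2, Cd14 and Ly86 lower in Trem2-KO mice at 9 months, where 0.292% of all tested genes were called lower. The log2 fold changes on that scale were -0.81 ± 0.31 for Tlr1, -0.80 ± 0.19 for Tlr2, -0.64 ± 0.16 for Cd14 and -0.44 ± 0.11 for Ly86, with adjusted p up to 0.0199. Tlr7 (-0.17 ± 0.16) and Tlr13 (0.14 ± 0.13) were not called on it. Tlr3, Tlr4 and Myd88 were called higher, as were 80.5% of all tested genes, since the median of all genes lay at 0.71. Between ages on this scale 0.914% of all tested genes were called higher in Trem2-KO and 0.533% in App-KI mice. Tlr2 rose in Trem2-KO (1.09 ± 0.23) and in App-KI mice (1.32 ± 0.21), and Tlr13 rose in Trem2-KO mice (0.54 ± 0.14). Cd14 and Ly86 rose in App-KI mice (1.05 ± 0.18 for Cd14 and 0.57 ± 0.11 for Ly86) and were not called in Trem2-KO mice (0.036 ± 0.18 for Cd14 and 0.16 ± 0.12 for Ly86). Tlr3, Tlr4 and Myd88 were called lower at 9 months in App-KI mice on this scale, as were 92.1% of all tested genes. The interaction was also called on this scale for Cd14 and Ly86. It was -1.01 ± 0.25 for Cd14 (adjusted p = 0.00150) and -0.41 ± 0.16 for Ly86 (adjusted p = 0.0342). Tlr3 and Myd88 were called in the other direction in the interaction, as were 66.4% of all tested genes, where 0.151% were called in the direction of Cd14 and Ly86. Because most genes were called on this scale, its calls admit a larger unadjusted p than those of the main fit. An adjusted p on this scale is therefore not comparable with one of the main fit. The scale is a ratio to these transcripts and not a count of cells. In the main fit the markers themselves ranged from -1.44 (Ptprc) to -0.18 (Tmem119) between genotypes at 9 months.

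**Figure D4:**
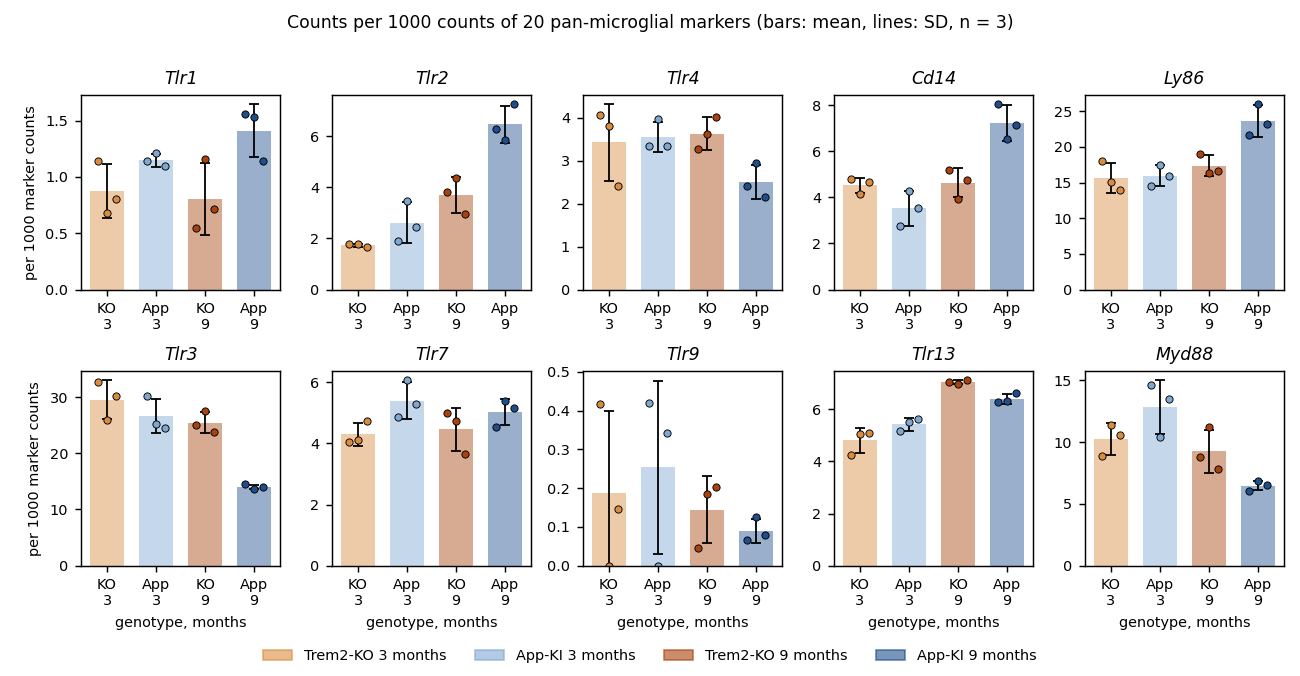
Counts of each gene per 1000 counts of 20 pan-microglial markers (y axis, linear from 0, own scale per gene) in the 4 groups (x axis); points are libraries, bars the mean and lines the SD of 3 libraries. At 9 months Tlr2 and Cd14 lie lower in Trem2-KO mice, with means of 3.71 and 4.63 against App-KI means of 6.46 and 7.24. Tlr3, Tlr4, Tlr13 and Myd88 lie higher in Trem2-KO than in App-KI mice, Tlr13 at 7.04 against 6.41. With libraries scaled by these markers, 80.5% of all tested genes were called higher in Trem2-KO mice at 9 months.

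The rest of the pathway was read from 7 lists with 74 genes, of which 63 were tested. At 9 months 13 of them were lower and 1 higher in Trem2-KO mice, with a median log2 fold change of -0.08 against 0.0066 over all tested genes, of which 1.39% were called lower and 0.684% higher. Of the 5 other Toll-like receptors, 2 were tested: Tlr12 fell by 1.14 ± 0.29 and Tlr6, another partner of TLR2, had -0.89 ± 0.37 (adjusted p = 0.279). Of 12 co-receptors and accessory proteins 5 fell. Ctss, a cathepsin that trims endosomal receptors, changed by -0.96 ± 0.07, Cd180, the receptor that Ly86 pairs with, by -1.15 ± 0.26, Unc93b1, which carries the endosomal receptors to their compartment, by -0.43 ± 0.10, and Ctsb, another cathepsin, by -0.26 ± 0.05. The fifth was Hsp90b1, a chaperone of the receptors, named after its values were seen. Cd180 had 2.14 ± 0.945 CPM in Trem2-KO and 4.76 ± 0.0384 CPM in App-KI mice. Of the 5 other adaptors Pik3ap1 fell by 0.51 ± 0.13. Of 17 kinases and ubiquitin ligases Irak2 (-0.36 ± 0.08) and Traf3 (-0.28 ± 0.06) fell and Irak1 (0.26 ± 0.05) rose. Of 10 transcription factors Irf8 (-1.03 ± 0.11) and Irf5 (-0.65 ± 0.13), which act downstream of the receptors in myeloid cells, fell. Of 12 negative regulators edgeR and DESeq2 each called 0. In edgeR 2 had an unadjusted p under 0.05, as did 2613 of the 19152 tested genes. Of 13 cytokine and chemokine targets 5 were tested, and the chemokines Ccl3 (-2.67 ± 0.38) and Ccl4 (-1.76 ± 0.40) fell by edgeR, where DESeq2 called 1 of the list. Trem2-KO libraries had 0.287 to 0.573 CPM of Ccl3 and 0.239 to 0.793 CPM of Ccl4, near the limit of 0.122 to 0.205 CPM. App-KI libraries had 2.57 to 2.90 CPM of Ccl3 and 1.23 to 1.90 CPM of Ccl4. The size of these 2 falls is therefore uncertain. Tnf and Il1b had too few counts to test. The adjusted p of these calls ran up to 0.0430 by edgeR's quasi-likelihood test.

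**Figure D5:**
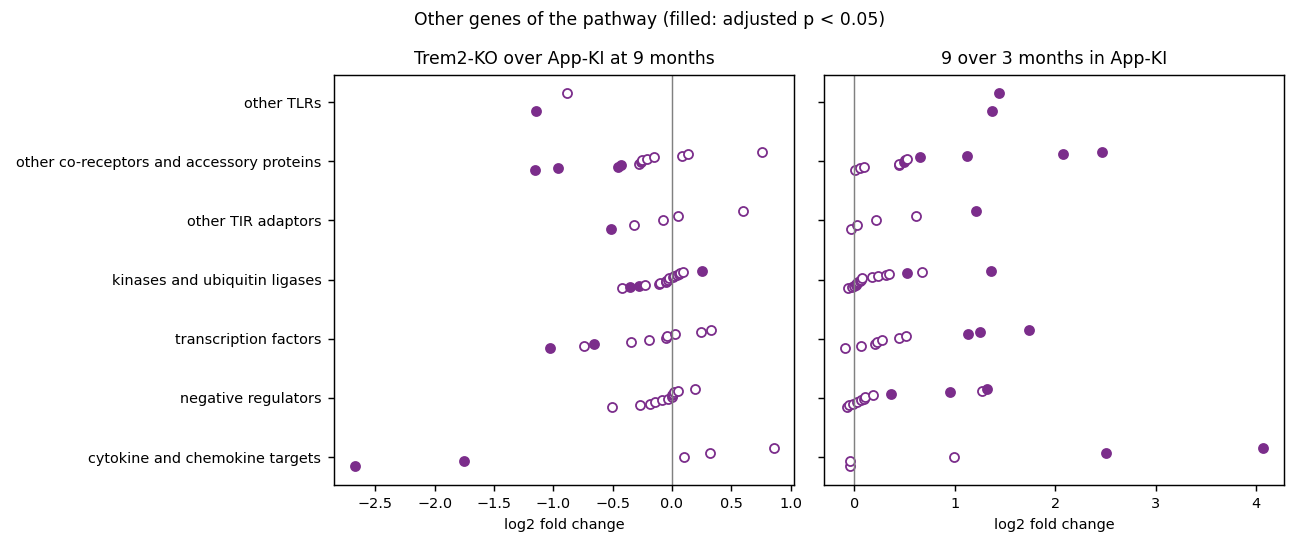
Log2 fold change (x axis) of the 63 tested genes of the 7 other pathway lists (y axis) for Trem2-KO over App-KI at 9 months (left) and 9 over 3 months in App-KI mice (right); filled points have an adjusted p under 0.05. On the left 13 filled points lie below 0 and 1 above; on the right all 19 filled points lie above 0. The 2 rightmost filled points of the targets, Ccl3 and Ccl4, rest on 3-month levels near the limit of detection, so no fold is read from them.

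With age, 15 of the 63 genes rose in Trem2-KO and 19 in App-KI mice, and none fell in either, where 5.68% of all tested genes rose in Trem2-KO and 3.95% in App-KI mice. The list medians were 0.23 in Trem2-KO and 0.24 in App-KI mice, against 0.0022 in Trem2-KO and -0.0011 in App-KI mice over all tested genes. Ctss rose by 1.15 ± 0.07 in Trem2-KO and by 2.07 ± 0.07 in App-KI mice, Unc93b1 by 0.70 ± 0.10 in Trem2-KO and by 1.13 ± 0.10 in App-KI mice, and Irf8 by 1.02 ± 0.12 in Trem2-KO and by 1.73 ± 0.12 in App-KI mice. Cd180 had 0.89 ± 0.30 in Trem2-KO (adjusted p = 0.0731) and rose by 2.46 ± 0.30 in App-KI mice, with a difference of -1.57 ± 0.43 that was not called (adjusted p = 0.240). Irak3, an inhibitory kinase of the pathway, rose by 1.22 ± 0.26 in Trem2-KO and by 0.95 ± 0.25 in App-KI mice. In the interaction 1 of the 63 was called, Ctss, with a difference of -0.92 ± 0.09 (adjusted p = 7.14e-05), where 0.209% of all tested genes were called in that direction. At 3 months 1 of the 63 was called between genotypes, Hsp90b1, which was lower in Trem2-KO mice, where 0.59% of all tested genes were called.

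Genes whose profile over the 12 libraries lay closest to each called gene were found by the root mean square difference of mean-centred log2 CPM among 14171 genes. For Tlr2 they were C3ar1, Mpeg1 and Tent5c, at 0.304 to 0.336, where the profile of Tlr2 itself had a root mean square of 1.20. For Cd14 they were Samsn1, Ctss and Plek, at 0.260 to 0.268, and for Ly86 C1qc, Fcgr3 and Plek, at 0.147 to 0.171. For Tlr13 they were C1qb, Laptm5 and C1qa, at 0.123 to 0.138, the smallest distances besides those of Tlr3, and all 3 are in the pan-microglial list. Tlr7 lay closest to Lair1, Rassf4 and Gpr183 (0.153 to 0.171), Tlr1 to Sash3, Lat2 and Tbxas1 (0.286 to 0.306), and Tlr4 to Msn, Dtx3l and Slc7a7 (0.174 to 0.184). Tlr3, whose own root mean square was 0.221, lay closest to Cdyl, Suclg2 and Twsg1 (0.0829 to 0.0922). A small distance describes these libraries, whose groups all the profiles share.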

How the data were processed

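Bulk RNA sequencing libraries of 12 hippocampi were made with the SMART-Seq mRNA LP kit, per the labels' protocols. The authors deposited raw read counts per Ensembl gene, 1 column per library. STAR 2.7.10a, featureCounts 2.0.3, R 4.2.0, DESeq2 1.36.0 and build GRCm39 are named in the submitters' processing notes; the sources used here give neither strand setting nor annotation release. Symbols came from GENCODE M21 (GRCm38), which matched 52073 of 56980 identifiers; its exon lengths served for levels per kilobase. Genes were kept by filterByExpr (minimum count 10, minimum total 15; 19152 genes), scaled by trimmed mean of M-values and tested with edgeR 4.0.16 (R 4.3.3; robust quasi-likelihood F-test, 1 term per group over all 12 libraries, 8 residual degrees of freedom, Benjamini-Hochberg over all tested genes, called under 0.05). The SE was derived from the F statistic and the unmoderated change. The test was also run on simulated counts, with the outcome not reported here. The limits for a count of 0 cover counting error alone, because without molecular identifiers several reads can stem from 1 molecule. The labels give each library its own mouse identifier and no batch. No replicate pair within a group was identical or within sampling noise (chi-square per degree of freedom 2.98 to 16.4 over 12 pairs).

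The 10 genes, the lists and the rules for naming genes were chosen with earlier results of these data known. All 10 genes are named in each comparison; of each other list up to 4 called genes with the smallest p may be named, and genes of like pattern are the 3 nearest per called gene among genes averaging 1 or more on the log2 CPM scale. Alternatives were DESeq2 1.42.0, DESeq2 size factors in edgeR, no filter, the 2 groups alone, scaling by pan-microglial markers, each library left out and, chosen after seeing the data, 3 libraries left out together.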

Additional observations from a re-analysis of the deposited data

Results flagged for a closer look

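The change with age differed between genotypes for 2 genes by the interaction term of edgeR's quasi-likelihood test. Cd14 had a difference of -1.62 (Trem2-KO minus App-KI, log2 scale), since it rose by 0.67 in Trem2-KO and by 2.29 in App-KI mice, with 3 of 3 Trem2-KO libraries below 3 of 3 App-KI libraries at 9 months. Ly86 had a difference of -1.02, with rises of 0.79 in Trem2-KO and 1.81 in App-KI mice and the same separation of libraries at 9 months. At 3 months the libraries of the genotypes overlapped for both genes. The pan-microglial markers moved in the same direction, with 9 of 20 called in the interaction by edgeR, 13 by DESeq2, and a median difference of -0.55.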

How the results depend on the processing

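Of the values of single genes, 45 of 45 kept direction and call with DESeq2 size factors, 44 of 45 with DESeq2 and 43 of 45 without the filter; Myd88 between ages in Trem2-KO mice was the DESeq2 exception. With the 2 groups fitted alone 34 of 36 did: Tlr4 between ages in Trem2-KO mice was lost (adjusted p = 0.0759) and Tlr3 in App-KI mice was gained (adjusted p = 0.0310). Scaling by pan-microglial markers moved the median of all genes by up to -1.24 (log2) and turned 13 directions. In Trem2-KO against App-KI mice at 9 months Tlr4 was then 0.53, Tlr13 0.14 and Myd88 0.51. Between ages, Tlr1 was -0.080, Tlr3 -0.21 and Myd88 -0.16 in Trem2-KO mice, and Tlr3 -0.92, Tlr4 -0.49, Tlr7 -0.097 and Myd88 -0.99 in App-KI mice. In the interaction Tlr4 was 0.59, Tlr7 0.15 and Tlr13 0.30. That scaling called 2 genes between ages in Trem2-KO mice and 4 in the interaction; without the 3 libraries low in choroid plexus markers the interaction called 1, and Tlr4 there was 0.10. Leaving out 1 library, the count between ages in Trem2-KO mice ran from 3 to 7; genotype at 3 months ran from -0.028 to 0.15 for Tlr3 and -0.29 to 0.045 for Tlr4, and the Tlr4 interaction from -0.22 to 0.14. The cause was not tested. Over all genes, the 113 calls between genotypes at 3 months became 347 without the filter, 259 with DESeq2, 218 with the 2 groups alone, 451 with marker scaling and 25 to 75 with 1 library left out. The 398 at 9 months became 831 without the filter, 15478 with marker scaling and 175 to 556 with 1 library left out. Between ages, the 1667 in Trem2-KO mice became 14094 with marker scaling and 769 to 1920 with 1 library left out, and the 1276 in App-KI mice became 17750, 788 to 1079, and 826 without the 3 libraries. The 51 of the interaction became 187 without the filter, 100 with DESeq2, 12750 with marker scaling and 29 to 76 with 1 library left out. No paired analysis was possible because the labels give each mouse its own identifier and no number shared between groups. Of the 9 tested genes Tlr1, with 258 counts in all, had the largest SE in each comparison (0.30 to 0.48).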
